A study of Mus musculus with 24 samples.

Results

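Collagens are the main structural proteins of the extracellular matrix, and their genes were followed here in cultures of macrophages and dendritic cells. A gene was included when it was annotated as protein-coding and carried a collagen alpha-chain symbol (Col, a type number, a and a chain number). This rule gave 44 genes out of 54532 in the table, of which 22046 were protein-coding. The rule used names alone, so it did not draw on any measured value.

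RNA was sequenced from 24 libraries of mouse macrophages (BMDMs) and dendritic cells (BMDCs), both grown from bone marrow with 3 libraries in each of 8 groups. Donor mice were Tmem173fl/fl animals (WT label) or Tmem173fl/fl animals that also carried Lyz2-Cre ert2 (CRE label). Both labels therefore carried the floxed allele, and the tamoxifen-inducible Cre is driven by a myeloid promoter. The methods describe tamoxifen injection of both genotypes, without stating it for the marrow donors. The strain background was C57BL/6N according to the methods. Tmem173 encodes STING, a sensor of the cytosolic DNA pathway, and DMXAA is an agonist of mouse STING. Treated cultures received DMXAA at 40 µM according to the series record, although a different unit appears in the methods, so the concentration is uncertain. The series record gives no duration of treatment for these cultures. Control cultures received no agonist. BMDMs were grown in medium conditioned by L929 cells, a mouse fibroblast line, and BMDCs in GM-CSF and IL-4. Ages of the mice used for these cultures, and what a library number (1, 2 or 3) stands for, were not given in the sources used here, so p-values measure only the spread between these libraries. FPKM of Tmem173 ranged from 8.76 to 15.1 in CRE-labelled and from 9.91 to 31.8 in WT-labelled BMDMs, and from 19.7 to 36.8 and from 28.8 to 55.3 in BMDCs. It was not lost in any library, so it does not check the labels.

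Each collagen molecule is built from 3 alpha chains that wind into a triple helix. Fibrillar collagens (types I, III and V among others) assemble into the cables of skin, bone and tendon. Type IV forms the sheet of basement membranes, type VI a beaded microfibril around cells, and fibril-associated collagens decorate the cables. Multiplexins such as Col18a1, the precursor of endostatin, sit in basement membranes and carry sugar chains. Fibroblasts are the classic source of fibrillar collagen, whereas macrophages are better known for taking collagen up and degrading it.

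Total counts ranged from 15657347 to 18912887 per library, and 10398 to 11458 genes reached an FPKM of 1. The 4 BMDM libraries numbered 3, 1 in every BMDM group, did not carry the defining markers of their labelled cell type. The summed FPKM of 7 leukocyte markers was 1.14 to 6.84 there and 1846 to 3264 in the other 20 libraries, C1qa was at 0, and 8 of 10 macrophage markers stayed below an FPKM of 1. In these 4 libraries the median FPKM of 12 fibroblast markers was 29.8 to 41.8. It was 2.40 to 3.92 in the WT-labelled BMDM libraries numbered 2 and 0.123 to 0.238 in the other 6 BMDM libraries. BMDM results are therefore given by library number, and the part of other cells in any of them was not tested. In such bulk RNA, fewer cells of a type and less RNA per cell cannot be told apart.

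Of the 44 collagen genes, 21 reached an FPKM of 1 in at least 1 library and 23 in none. The 12 that stayed below 0.1 in every library were Col4a3, Col4a4, Col4a6, Col6a6, Col8a2, Col9a1, Col10a1, Col13a1, Col19a1, Col22a1, Col25a1 and Col26a1. Col9a1, Col10a1 and Col13a1 had at most 3 counts in each library. Col18a1 was the most abundant collagen gene in the other 6 BMDM libraries, whereas type I chains led in the libraries numbered 3.

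Promoter sequences are shown for 3 genes whose levels followed different patterns, namely Col3a1 (the widest gap between the libraries numbered 3 and the rest), Col5a3 (higher under DMXAA in most pairs) and Col18a1 (the leading collagen of macrophage cultures). Capitals mark the CCAAT box, the GC box (spelled GGGCGG) and the TATA box (spelled TATAAA) on either strand, 5′ to 3′ along the gene's strand, in GRCm38.p6 as given by RefSeq.
Col3a1, + strand, chr1:45311288-45311537: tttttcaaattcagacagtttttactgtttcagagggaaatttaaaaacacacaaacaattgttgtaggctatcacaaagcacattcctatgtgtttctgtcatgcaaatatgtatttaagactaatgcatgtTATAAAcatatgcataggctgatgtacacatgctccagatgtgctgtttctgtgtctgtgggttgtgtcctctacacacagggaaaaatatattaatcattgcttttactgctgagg
Col5a3, - strand, chr9:20815068-20815317: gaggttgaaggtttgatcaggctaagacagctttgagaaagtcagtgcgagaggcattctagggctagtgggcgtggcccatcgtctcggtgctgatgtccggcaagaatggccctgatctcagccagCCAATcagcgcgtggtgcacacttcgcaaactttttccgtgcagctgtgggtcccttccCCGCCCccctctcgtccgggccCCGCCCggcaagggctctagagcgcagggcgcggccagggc
Col18a1, - strand, chr10:77166549-77166780: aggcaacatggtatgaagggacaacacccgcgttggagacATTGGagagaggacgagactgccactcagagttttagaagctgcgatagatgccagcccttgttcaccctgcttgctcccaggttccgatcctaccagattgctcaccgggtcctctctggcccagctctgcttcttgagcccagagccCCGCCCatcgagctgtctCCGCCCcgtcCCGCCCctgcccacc

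Col3a1 held a TATA box and no GC box, whereas Col5a3 and the Col18a1 window shown held a CCAAT box, GC boxes and no TATA box. RefSeq lists a second Col18a1 start at 77113705, whose window held none of these boxes and is not shown. Which start made the Col18a1 RNA measured here was not tested. Windows ended just before the gene's start, and for Col18a1 18 bases were left out because the table starts the gene further upstream. Across all 32851 promoters of the RefSeq table, 33.8% held a CCAAT box, 32.7% a GC box and 12.4% a TATA box in the 250 bases before the start. Among 38 promoters listed for 35 of the collagen genes, the numbers were 13, 22 and 5. These matches describe letters only.

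**Figure D1:**
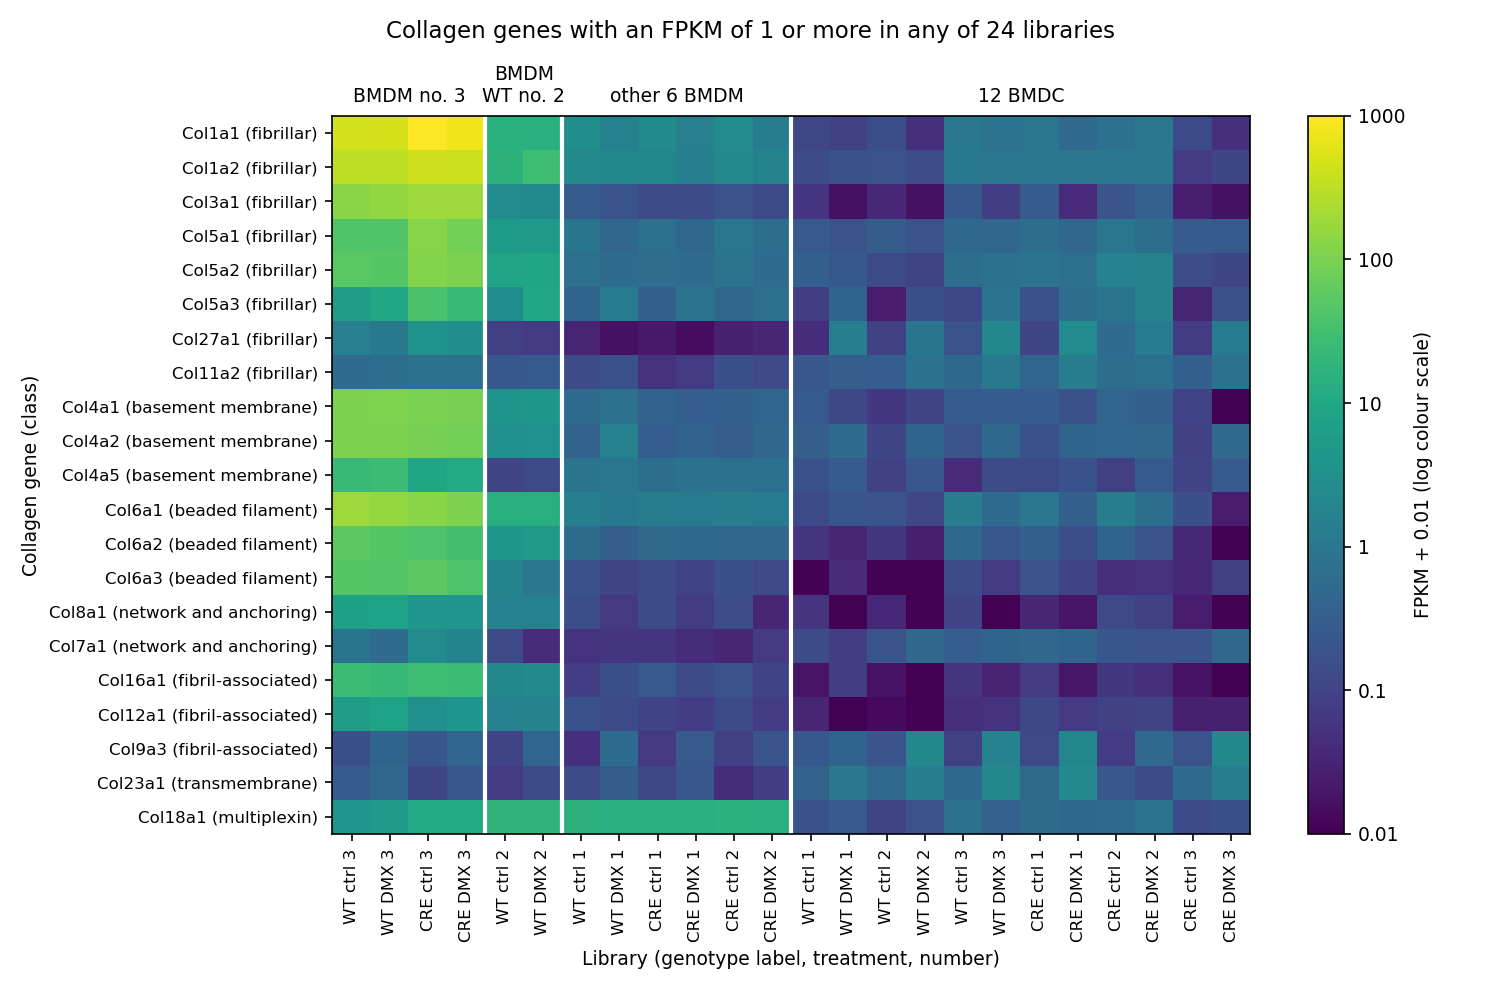
FPKM (plus 0.01, log colour scale) of the 21 collagen genes that reached an FPKM of 1, in rows by class, in each of 24 libraries, in columns by cell type and library number. The libraries numbered 3 are bright for types I, III, IV, V and VI. Col18a1 is the brightest row of the BMDM libraries outside number 3 and WT-labelled number 2, and BMDCs stay at or below an FPKM of 2.56.

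Summed over the 44 genes, collagen FPKM ran from 1587 to 2461 in the 4 BMDM libraries numbered 3. It was 104 in control and 122 under DMXAA in WT-labelled number 2, and 22.6 to 29.4 in the other 6 BMDM libraries. The 12 BMDC libraries lay lowest, between 3.65 and 15.4, and none of these ranges overlapped. Collagen genes took 1.74% to 2.55% of all counts in the libraries numbered 3 and 0.00281% to 0.0109% in BMDCs. In WT-labelled number 2 they took 0.0941% in control and 0.0791% under DMXAA, the opposite direction to FPKM. The library size behind FPKM was 1.12 and 0.771 times the total count in that pair. Scaling by TMM library sizes left the mean sums at 1933, 116, 26.2 and 9.08, against 1924, 113, 25.7 and 9.11 with deposited FPKM.

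The classes differed as well as the totals. Fibrillar chains made up 64.8% to 80.7% of collagen FPKM in the libraries numbered 3, 50.0% and 57.2% in WT-labelled number 2 and 21.5% to 27.2% in the other 6 BMDM libraries. In those 6, multiplexins held 54.0% to 61.0%, nearly all of it Col18a1. Type VI chains held 8.82% to 18.1% of collagen FPKM in the libraries numbered 3. In BMDCs no class was dominant throughout, and fibril-associated chains reached 33.8% while fibrillar chains ranged from 29.4% to 64.4%.

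**Figure D2:**
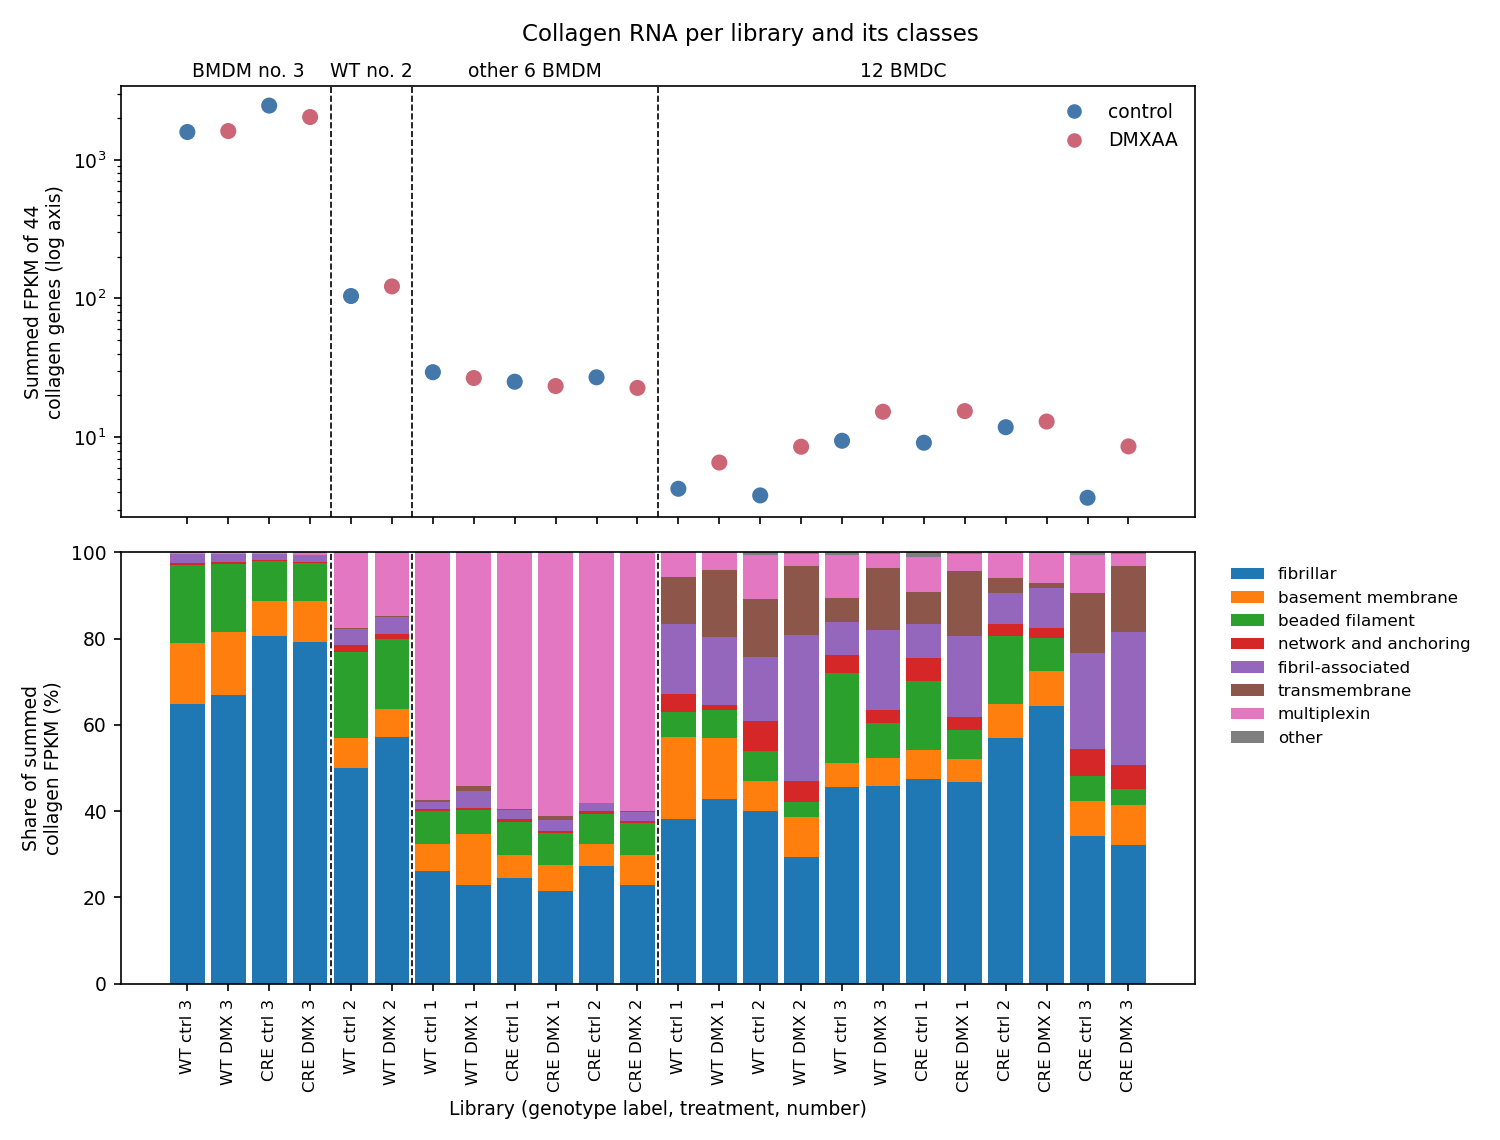
Summed FPKM of the 44 collagen genes per library (upper panel, log axis, control blue and DMXAA red) and the share of each collagen class in that sum (lower panel, percent). The 4 BMDM libraries numbered 3 sit between 1587 and 2461, above WT-labelled number 2, and Col18a1, a multiplexin, fills 53.3% to 59.7% of the bar in the other 6 BMDM libraries.

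Type I collagen was the most abundant in the libraries numbered 3. Col1a1 and Col1a2 encode its chains and lie on chromosome 11 (94936224 to 94953042) and chromosome 6 (4504814 to 4541544). In the libraries numbered 3, Col1a1 had an FPKM of 465 and 480 in WT control and WT DMXAA, and 1081 and 786 in CRE control and CRE DMXAA. In WT-labelled number 2 it was 15.8 and 15.1, and in the other 6 BMDM libraries 1.31 to 3.02. Because of number 3, the group means carried SDs larger than themselves, for example 161 ± 263 for WT control and 362 ± 623 for CRE control (SD, n = 3 each).

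Col1a2 had an FPKM of 332, 337, 440.1 and 419 in the same order of the 4 libraries, 16.8 and 27.7 in WT-labelled number 2, and 1.42 to 2.25 in the other 6. Mature type I collagen holds the chains in unequal numbers, with Col1a1 in excess. The FPKM ratio of Col1a1 to Col1a2 was 1.40 to 2.46 in the libraries numbered 3, 0.546 and 0.941 in WT-labelled number 2 and 0.751 to 1.34 in the other 6. FPKM divides by annotated gene length, 6563 bases for Col1a1 and 12426 for Col1a2. In counts, Col1a2 exceeded Col1a1 in number 3 of WT control, WT DMXAA and CRE DMXAA, but not of CRE control (115819 and 150221). The size of a ratio between genes thus depends on these lengths, whereas its comparison between libraries does not.

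Col3a1, the chain of type III collagen in elastic tissues, showed an even wider gap. It had 127, 158, 182 and 188 in the libraries numbered 3, 2.61 and 2.36 in WT-labelled number 2 and 0.120 to 0.269 in the other 6. Type V collagen, which sets the diameter of type I fibrils, followed with Col5a1 at 43.6, 44.3, 122 and 88.5 and Col5a2 at 52.7, 49.0, 119 and 105 in the same order. Both chains were higher in each CRE-labelled library numbered 3 than in each WT-labelled one.

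Col5a3, a further type V chain, behaved differently from the other fibrillar genes. It had 6.19 and 9.75 in the WT-labelled libraries numbered 3 and 37.3 and 23.4 in the CRE-labelled ones. WT-labelled number 2 had 2.74 in control and 10.1 under DMXAA, so its DMXAA library lay above both WT-labelled libraries numbered 3. The other 6 ranged from 0.328 to 1.08.

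Basement membrane chains Col4a1 and Col4a2 are transcribed head to head from chromosome 8, and their annotated exons share 22 bases. Col4a1 had 101, 106, 98.3 and 93.7 and Col4a2 101, 103, 92.8 and 87.0 in the libraries numbered 3, a ratio of 1.0 to 1.08. The ratio was 1.17 and 1.33 in WT-labelled number 2 and 0.455 to 1.45 in the other 6, where both genes were low. The lowest ratio came from WT DMXAA number 1, in which Col4a2 had 1.54 and Col4a1 0.699.

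Col4a5, a chain of the kidney-type basement membrane network, had 23.7, 26.3, 9.11 and 11.5 in the libraries numbered 3. Unlike the other 16 genes tested in BMDMs, it was lower in WT-labelled number 2 (0.0988 and 0.124) than in each of the other 6 libraries (0.624 to 0.908), a direction that 9.3% of all genes tested shared.

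Type VI chains Col6a1 and Col6a2, neighbours on chromosome 10, had similar ratios across BMDM libraries. Col6a1 had 184, 159.6, 129 and 105 and Col6a2 54.9, 47.0, 42.1 and 33.1 in the libraries numbered 3, and the ratio was 3.07 to 3.39 there, 2.75 and 3.21 in WT-labelled number 2 and 2.33 to 3.29 in the other 6. In 11 BMDC libraries, where both genes were low, it ranged from 2.24 to 8.24. Col6a3, which completes the molecule, had 47.5, 45.2, 54.6 and 41.3. Its ratio to Col6a1 was 0.258 to 0.422 in the libraries numbered 3, against 0.0701 and 0.128 in WT-labelled number 2 and 0.0794 to 0.122 in the other 6.

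Among fibril-associated chains, Col16a1 had 26.5, 21.9, 27.4 and 27.3 and Col12a1 6.16, 7.85, 3.28 and 4.20 in the libraries numbered 3. Both were at most 0.240 in the other 6 BMDM libraries. Col8a1, a short network-forming chain made by vessel walls, had 7.27, 8.10, 4.07 and 4.09, against at most 0.150 in the other 6.

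Col18a1 (ENSMUSG00000001435, chromosome 10, 77052178 to 77166548) ran the other way. It had 13.3 to 16.5 in the other 6 BMDM libraries and 18.1 and 17.8 in WT-labelled number 2. In the libraries numbered 3 it was 4.13 and 4.87 with the WT label and 10.9 and 10.8 with the CRE label, below each of the other 8. Only Col15a1, the second multiplexin, shared this direction, with 0.195 to 0.416 in the other 6 and at most 0.0386 in the libraries numbered 3.

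Taking all 44 genes, 20 were higher in each library numbered 3 than in each other BMDM library, and 2 were lower. Over the 12379 genes tested in BMDMs the same pattern held for 27.4% and 26.3%. Of the 17 collagen genes among those tested, 15 were higher in this way and Col18a1 was lower. The difference between number 3 and numbers 1 and 2 was also fitted across all genes with edgeR. Here 8782 of 12379 genes (70.9%) were called, 34.0% higher and 36.9% lower, and 16 of 17 collagen genes tested were higher and 1 lower. Since only 6 of these 17 reached an FPKM of 1 in 3 libraries without number 3, most could be tested only through the libraries in which they were high. These counts of tested genes therefore support nothing. That the libraries numbered 3 stand apart was known from earlier results of these data.

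Fitted differences (number 3 minus numbers 1 and 2, log2 scale) were 8.74 ± 1.03 (SE) for Col3a1, 7.56 ± 0.88 for Col1a1, 7.34 ± 0.83 for Col6a3, 6.83 ± 0.75 for Col4a1 and 6.82 ± 0.65 for Col4a2. They were 6.55 ± 0.90 for Col1a2, 6.20 ± 0.64 for Col27a1 and 5.96 ± 0.94 for Col16a1. Col18a1 had -1.15 ± 0.28 (edgeR adjusted p = 0.00423). Without both WT-labelled libraries numbered 2 the fit called the same number of collagen genes, 16 higher and 1 lower.

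Inside the libraries numbered 3 the labels differed in composition, and this difference was not tested. Of 17 tested collagen genes, 9 were higher in both CRE-labelled libraries than in both WT-labelled ones (background 28.4%) and 7 were lower (27.9%). Only 6 of these 17 reached an FPKM of 1 in 3 libraries without number 3, so most entered through the libraries compared here. These counts are therefore a description that supports nothing. What a library number stands for was not given, so control and DMXAA of a label may not be independent here. The higher set held fibrillar chains (Col1a1, Col1a2, Col3a1, Col5a1, Col5a2, Col5a3 and Col27a1), Col16a1 and Col18a1. The lower set held Col4a1, Col4a2, Col4a5, Col6a1, Col6a2, Col8a1 and Col12a1. Acta2, a contractile gene of myofibroblasts and smooth muscle, ranged from 122 to 678 in these 4 libraries, and its part in the collagen levels was not tested.

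WT-labelled number 2 held collagen RNA in proportions of its own. Expressed as a percentage of WT-labelled number 3, its FPKM was 0.416% and 0.470% for Col4a5, 2.06% and 1.49% for Col3a1, 3.41% and 3.15% for Col1a1 and 5.08% and 8.20% for Col1a2 (control and DMXAA). It was 7.74% and 8.53% for Col6a1, 12.2% and 11.7% for Col5a1, 15.5% and 18.3% for Col5a2, 26.7% and 22.0% for Col12a1, and 44.2% and 104% for Col5a3. Control and DMXAA thus lay close to each other for most genes, while the genes differed from each other over a wide range.

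Of the 44 genes, 25 were higher in both WT-labelled libraries numbered 2 than in the other 6 BMDM libraries, among them 16 of the 17 tested (background 11.5%). Of those tested, 14 also lay below each library numbered 3 (background 6.53%). Of these 17, only 4 reached an FPKM of 1 in 3 of the other 6 libraries, so most entered through the libraries in which they were high, and these counts are a description that supports nothing. Acta2 and Thy1 were also uneven between these cultures, but the other markers of their lists are not given here. In WT-labelled number 2, Thy1 lay below the median of fibroblast markers given above. Acta2 was 117 and 136 in WT-labelled number 2, whereas Thy1, a fibroblast surface protein, was 0.0791 and 0.116 there and 95.4 to 110 in the libraries numbered 3.

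**Figure D3:**
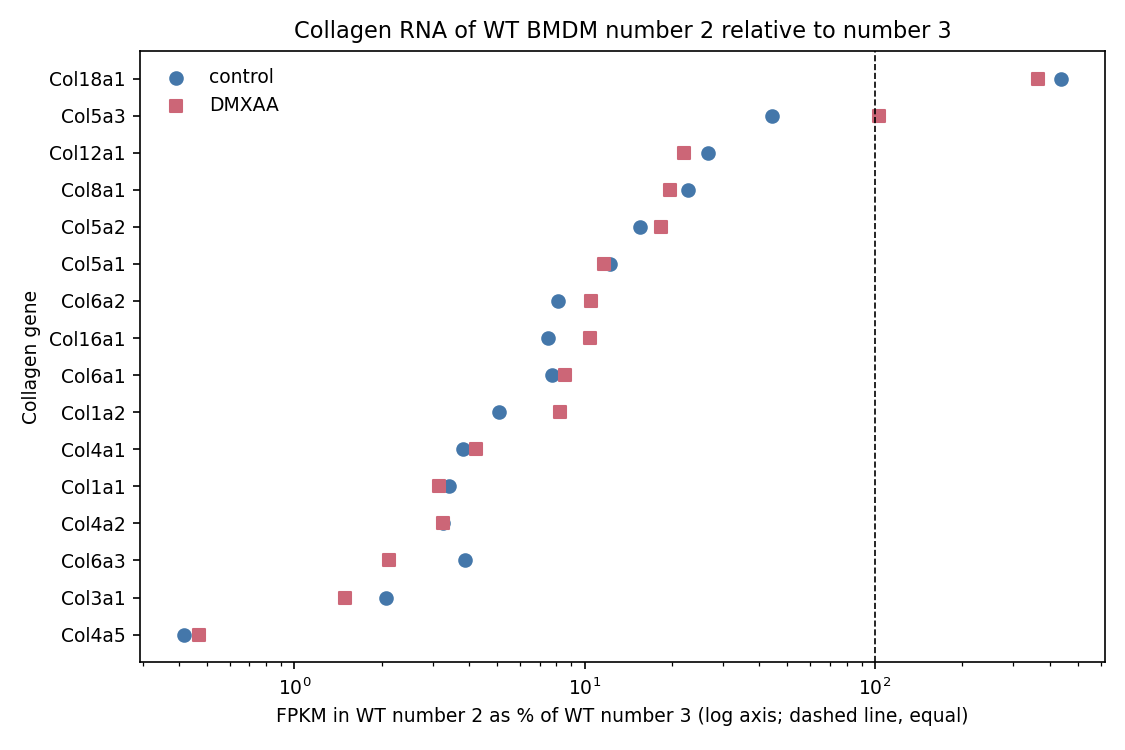
FPKM of the 16 most abundant collagen genes in WT-labelled BMDM number 2 as a percentage of WT-labelled number 3 (log axis), control as circles and DMXAA as squares, with the dashed line at equal levels. Values run from 0.416% for Col4a5 to over 100% for Col18a1, and the paired symbols of a gene lie near each other apart from Col5a3 and a few others.

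The DMXAA comparison asks whether STING activation altered collagen RNA. With all 12 BMDM libraries, edgeR called 0 of 12379 genes (0.0%) in WT-labelled cells, CRE-labelled cells, between labels or for the interaction, and so 0 of 17 collagen genes, and 0 of these had an unadjusted p under 0.05 in any of the 5 contrasts. DESeq2 and limma also called 0 collagen genes in each. The libraries numbered 3 set the spread in this fit. With numbers 1 and 2 only, 35.2% of 12329 genes were called for DMXAA in WT-labelled and 8.65% in CRE-labelled BMDMs (6.46% higher and 2.2% lower), and again 0 of 17 collagen genes, none of which had an unadjusted p under 0.05.

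Between labels with numbers 1 and 2, 0 of 17 collagen genes were called in control (background 0.0324%) or under DMXAA (16.6%, of which 8.24% were higher and 8.39% lower), and 0 for the interaction (2.84%, with 1.8% lower). Their median log2 fold change, CRE minus WT, was -2.42 in control and -2.64 under DMXAA, against -0.03 and -0.01 over all genes, and 3 and 7 collagen genes had an unadjusted p under 0.05, as did 6.59% and 31.6% of all genes. These gaps moved with WT-labelled number 2, which lay above the other libraries of the fit as described. DESeq2 called 7 of them lower under DMXAA, where it called 13.7% of all genes lower. Without a filter 14 were called lower in each treatment, where 2.39% of genes in control and 8.49% under DMXAA were.

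Without WT-labelled number 2, each WT-labelled group held 1 library, whose spread was taken from the CRE-labelled pairs. Those pairs were unusually close, with a chi-square per degree of freedom of 3.26 (control 1 and 2) and 4.99 (DMXAA 1 and 2) against at least 36.6 for any other BMDM pair, so p-values of this fit measure a spread that may be technical. For DMXAA in the WT label, 28.7% of 12279 genes were then called higher and 31.0% lower. Of 17 collagen genes, Col4a2 (1.91 ± 0.31, adjusted p = 2.73e-05) and Col5a3 (1.33 ± 0.32, adjusted p = 0.00132) were higher, both by edgeR on the log2 scale. Col1a1 was lower (-1.03 ± 0.19, adjusted p = 9.47e-05 in edgeR), as were Col5a1, Col6a2 and Col18a1.

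In the CRE label, 27.6% of genes were called higher and 24.5% lower in that fit. Col5a3 was again higher (0.94 ± 0.23, adjusted p = 0.00206 in edgeR), and Col1a1 lower (-0.81 ± 0.13, adjusted p = 3.73e-05 in edgeR) together with Col1a2, Col5a1 and Col8a1. In FPKM, Col1a1 was 3.02 and 1.58 in WT number 1, 2.37 and 1.5 in CRE number 1 and 2.53 and 1.31 in CRE number 2, for control and DMXAA. These calls were absent with WT-labelled number 2 in the fit, and the collagen genes called did not exceed their background shares.

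Between labels under DMXAA without WT-labelled number 2, 23.7% of genes were called lower in the CRE label, as were Col4a2 (-1.86 ± 0.26), Col4a1 and Col1a2. Col4a2 was also the 1 collagen gene called for the interaction (-1.54 ± 0.41, adjusted p = 0.00486 in edgeR), where 43.5% of all genes were called.

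**Figure D4:**
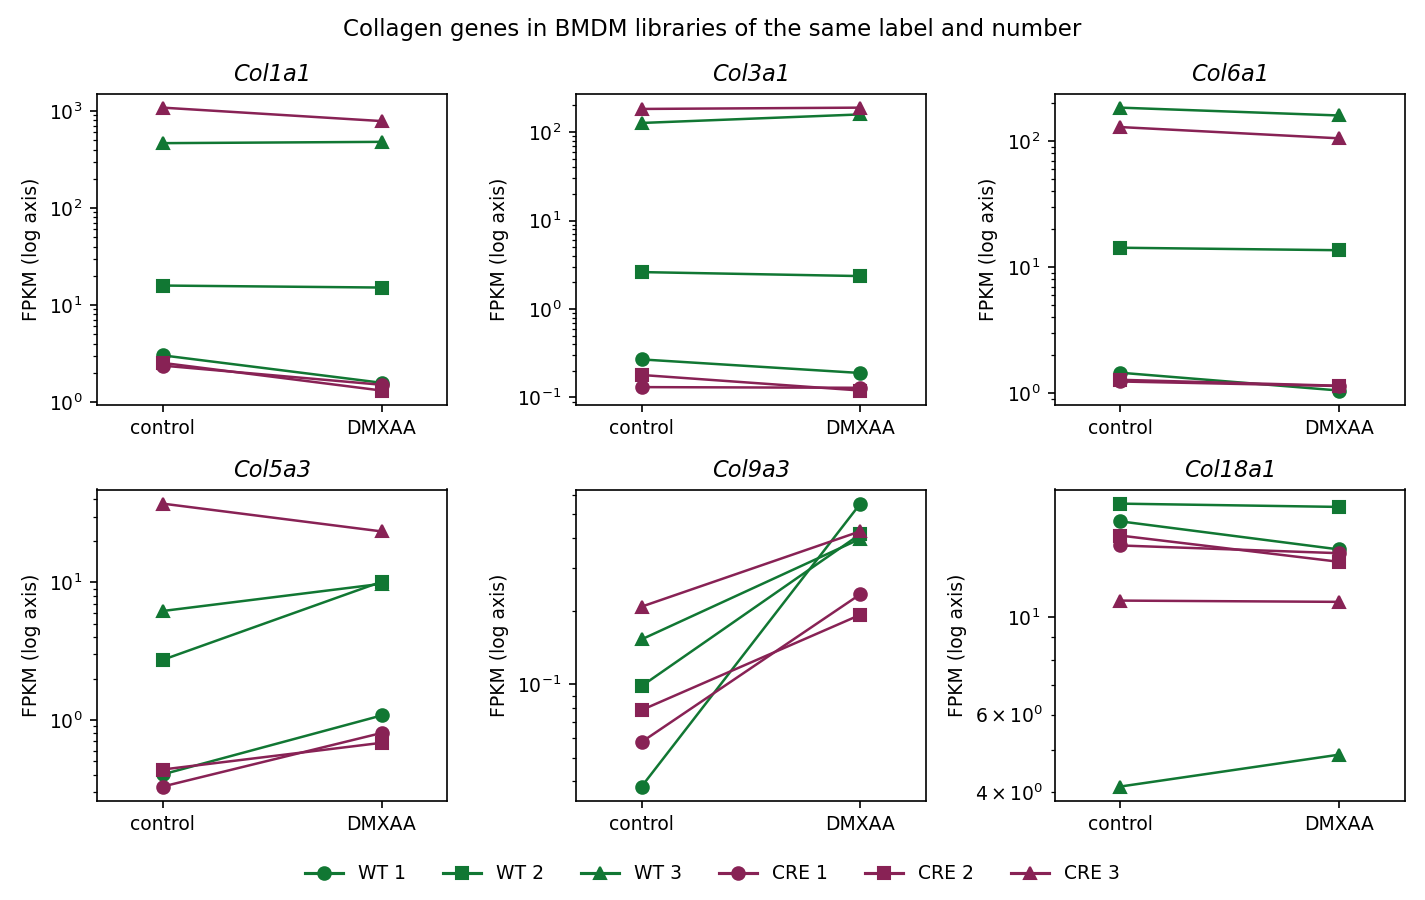
FPKM (log axes) of 6 collagen genes in BMDM libraries, with lines joining control and DMXAA of the same label and number. The 4 libraries numbered 3 (triangles) lie far above the rest for Col1a1, Col3a1 and Col6a1 and below for Col18a1, and Col9a3 is higher under DMXAA in all 6 pairs.

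In the libraries numbered 3 themselves, DMXAA was compared with control within labels, with 1 residual degree of freedom. edgeR called 9.03% of 12134 genes, 5.3% higher and 3.73% lower. Col12a1 was higher (0.36 ± 0.08, adjusted p = 0.0167 in edgeR, higher in 2 of 2 pairs) and Col27a1 lower (-0.39 ± 0.11, adjusted p = 0.0437 in edgeR, lower in 2 of 2 pairs). Both differences were small, and DESeq2 and limma called 0 collagen genes here. Col1a1 went from 465 to 480 in the WT pair and from 1081 to 786 in the CRE pair, so the pairs differed in direction.

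Collagen RNA was scarce in BMDCs. None of the 44 genes reached an FPKM of 1 in all 12 libraries and 9 did so in at least 1, and 3 (Col6a4, Col9a1 and Col11a1) had no count. Only Col27a1, Col9a3 and Col23a1 passed the filter of an FPKM of 1 in 3 libraries. Each owed this to the DMXAA libraries, so the genes that could be tested were those high under the agonist.

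Col27a1 (chromosome 4, 63214004 to 63334991), a fibrillar chain of cartilage, was at 0.0331, 0.0860 and 0.180 FPKM in WT control and 1.35, 0.872 and 2.07 in WT DMXAA. In CRE control it was at 0.101, 0.553 and 0.0657 and in CRE DMXAA at 2.56, 1.09 and 1.11. Control and DMXAA did not overlap in either label. It rose by 3.80 ± 0.83 on the log2 scale in the WT label (SE, n = 3; adjusted p = 0.00482 in edgeR) and by 2.71 ± 0.78 in the CRE label (adjusted p = 0.0247 in edgeR), in 6 of 6 pairs.

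Col9a3 (chromosome 2, 180597790 to 180622189), a fibril-associated chain of cartilage, was at 0.224, 0.198 and 0.0793 in WT control and 0.399, 2.04 and 1.67 in WT DMXAA. In CRE control it was at 0.114, 0.0687 and 0.181 and in CRE DMXAA at 1.95, 0.501 and 2.17. It rose by 3.02 ± 0.73 in the WT label (adjusted p = 0.00803 in edgeR) and by 3.63 ± 0.75 in the CRE label (adjusted p = 0.00455 in edgeR), again in 6 of 6 pairs. These levels rest on 5 to 127 counts per library. Tcfl5 on the opposite strand shares 234 of 3853 exon bases with Col9a3 and had at most 0.374 FPKM, and the strand setting of the counting was not given in the sources used here.

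Col23a1, a transmembrane collagen, had 0.376, 0.506 and 0.462 in WT control and 1.01, 1.33 and 2.16 in WT DMXAA. It had 0.529, 0.222 and 0.494 in CRE control and 2.30, 0.135 and 1.29 in CRE DMXAA, so CRE number 2 went against the other 5 pairs. Its differences of 1.72 ± 0.72 (adjusted p = 0.0927 in edgeR) and 1.55 ± 0.72 (adjusted p = 0.144 in edgeR) did not pass the threshold. DESeq2 called the first (adjusted p = 0.0406).

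In all, 2 of 3 collagen genes tested were called higher in each label, where 17.0% and 14.0% of 12126 genes were (15.2% and 11.4% were lower). Because the filter admitted these 3 through their DMXAA libraries, nothing is read from that share. The adjusted p-values of the 3 genes carry the same limit, whereas their FPKM values do not depend on the filter. Between the labels, in control or under DMXAA, and for the interaction, 0 of 12126 genes (0.0%) were called, and so 0 collagen genes. Leaving out CRE control number 1 or 3, or CRE DMXAA number 1, the Col27a1 difference in the CRE label was 2.17 to 2.33 and no longer called.

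**Figure D5:**
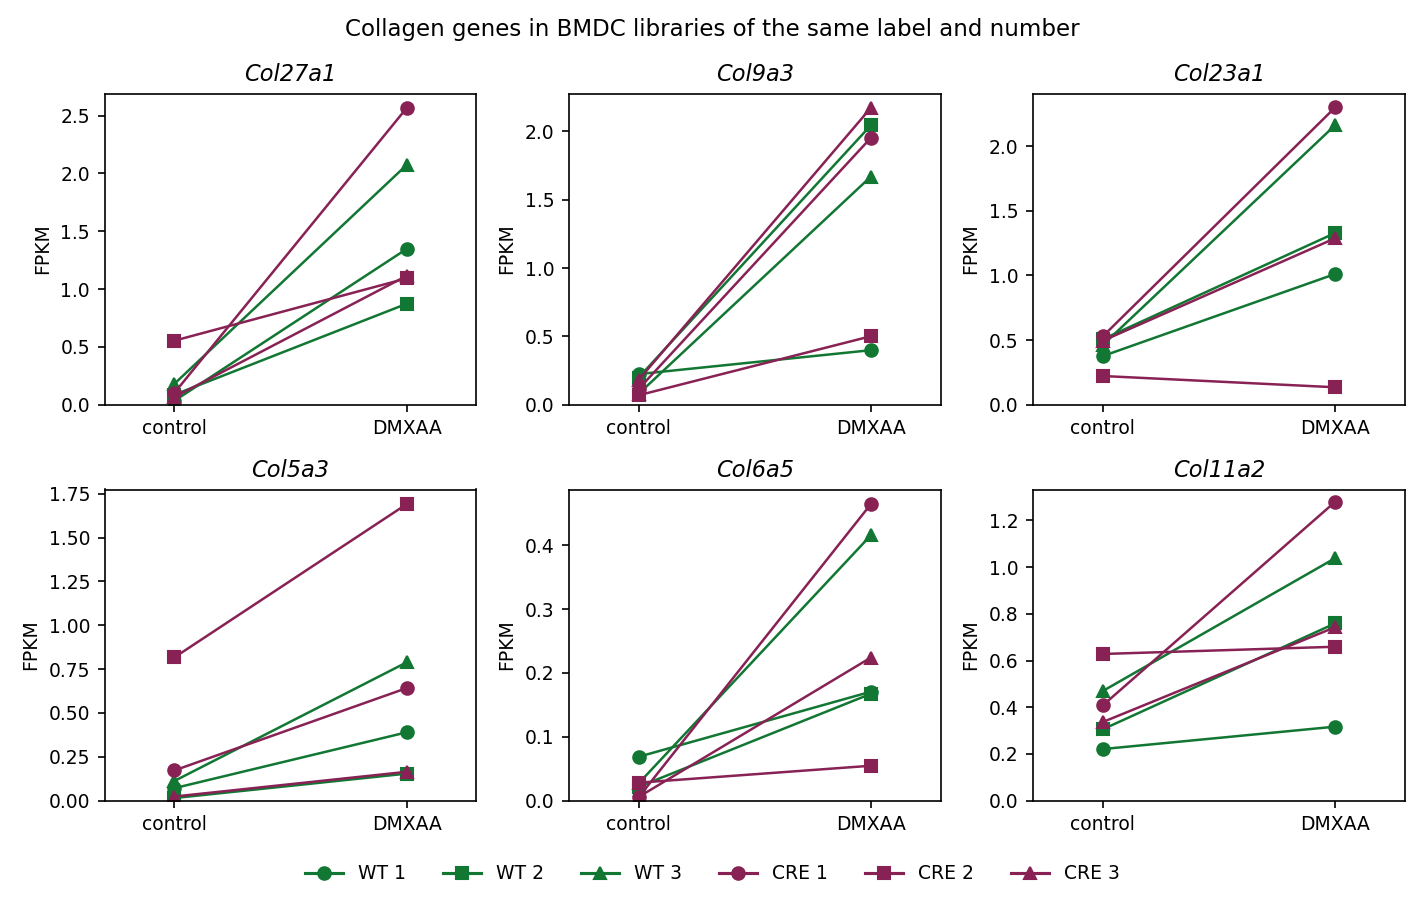
FPKM (linear axes from 0) of 6 collagen genes in BMDC libraries, with lines joining control and DMXAA of the same label (WT green, CRE purple) and number. Col27a1, Col9a3, Col5a3, Col6a5 and Col11a2 are higher under DMXAA in 6 of 6 pairs and Col23a1 in 5 of 6, and all stay at or below an FPKM of 2.56.

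Across the 44 genes, 7 had higher FPKM under DMXAA in all 6 BMDC pairs (Col4a2, Col4a5, Col5a3, Col6a5, Col9a3, Col11a2 and Col27a1) and 4 had lower FPKM in all 6. Over the 12126 genes tested these patterns held for 28.2% and 26.0%. Those shares cover only genes that passed the filter, as 3 of the 44 did, so they are no matching background for the 44. The 6 pairs may also not be independent, as given below. Col5a3 went from 0.0713, 0.0150 and 0.112 to 0.390, 0.154 and 0.789 in the WT label and from 0.172, 0.817 and 0.0236 to 0.642, 1.69 and 0.165 in the CRE label. It was too low to be tested. With no filter on low values, where 7.7% of 29530 genes were called higher in the WT label, Col5a3 was called at 2.70 ± 0.77 (adjusted p = 0.0112 in edgeR). Col6a5, Col23a1, Col27a1 and Col9a3 were called higher there as well, and Col8a1 lower. In BMDMs, Col9a3 and Col23a1 had higher FPKM under DMXAA in 6 of 6 pairs and Col5a3 in 5 of 6, at 0.0381 to 0.551 FPKM for Col9a3. Col6a1 and Col6a3 were lower in FPKM in 6 of 6 BMDM pairs. Over the 12379 genes tested in BMDMs, 12.3% were higher in all 6 pairs and 12.6% lower. Col9a3 and Col23a1 were too low to be among those tested. In the 3 pairs outside number 3 and WT-labelled number 2, 10 of 17 tested collagen genes were lower in FPKM under DMXAA in each pair (background 30.9%) and 2 were higher (32.6%). Of these 17, only 4 reached an FPKM of 1 in every one of those 6 libraries. Most thus entered through other libraries in which they were high, so these counts are a description that supports nothing. CRE number 1 and CRE number 2 were also unusually close to each other, as given above.

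Fibrillar and type VI collagens varied between BMDC library numbers. Summed FPKM of Col1a1, Col1a2, Col3a1, Col5a1, Col5a2, Col6a1, Col6a2 and Col6a3 was 5.33 and 3.84 in WT number 3 (control and DMXAA), 5.01 and 3.16 in CRE number 1 and 6.21 and 5.47 in CRE number 2. In WT number 1 it was 1.04 and 0.939, in WT number 2 1.0 and 0.591 and in CRE number 3 0.812 and 0.591. The sum was lower under DMXAA in 6 of 6 pairs, and the 6 pairs fell at different levels. Whole-library counts put WT number 3 closest to CRE number 1 and WT number 2 closest to CRE number 3 in both treatments (chi-square per degree of freedom 3.5 to 5.12, next pair 15.8). No 2 libraries had identical counts, and these pairs differed by more than sampling noise. Whether the labels share animals or cultures was not tested. If they do, the comparison between labels in BMDCs and counts over all 6 BMDC pairs overstate the independent samples. A difference found in both labels would then not have been found independently.

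Control BMDCs were compared with control BMDMs in the WT label over 13732 genes. edgeR called 8.51% of genes, 3.5% lower in BMDCs, and of 19 collagen genes tested Col18a1 was lower. Its FPKM was 0.169, 0.0943 and 0.696 in BMDCs and 16.5, 18.1 and 4.13 in BMDMs, with no overlap, and the difference was -5.34 ± 0.86 (log2 scale; SE, n = 3). It was called with numbers 1 and 2 of BMDMs as well (-5.79 ± 0.70, adjusted p = 1.77e-05 in edgeR).

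With BMDM numbers 1 and 2, 28.0% of 13708 genes were called, 15.1% lower in BMDCs, as were 16 of 19 collagen genes. The filter took all 24 libraries, including those numbered 3. Only 6 collagen genes reached an FPKM of 1 in 3 of the 8 BMDM libraries numbered 1 and 2, and 3 did in BMDCs. Most thus entered through BMDM libraries in which they were high, so these counts are a description that supports nothing. The count of 16 also depended on single libraries. Without both WT-labelled BMDM libraries numbered 2 it was 2 (Col18a1 and Col4a5), without BMDC WT control number 2 it was 5 and without BMDC WT control number 1 it was 8. A replicate block brought the 16 to 1, Col18a1, and raised the first comparison from 1 to 2 collagen genes.

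Genes that act on collagen were taken from lists chosen with earlier results of these data known. Set against numbers 1 and 2, the libraries numbered 3 had higher RNA for 8 of 8 tested chaperones and export factors and 5 of 5 propeptide-processing genes. In that fit 34.0% of 12379 genes were called higher and 36.9% lower. A gene could enter this fit through the libraries numbered 3 alone, so these and the following list counts are descriptions, as for the collagen genes. Serpinh1, the collagen-specific chaperone, had 391 to 525 FPKM in the libraries numbered 3, 38.6 and 41.4 in WT-labelled number 2 and 1.90 to 2.97 in the other 6. Lox, a lysyl oxidase that cross-links fibrils, had 140 to 307, 22.7 and 33.6, and 1.33 to 3.05, and 3 of 4 cross-linking genes were higher.

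Hydroxylation and glycosylation genes were less uniform, with 7 higher and 1 lower (Plod1) of 13. The counts of this paragraph stand beside the same shares over all genes, 34.0% higher and 36.9% lower. Prolyl hydroxylase subunits P4ha2 (3.52 ± 0.42, log2 scale) and P4ha3 (4.72 ± 0.97) were higher, whereas P4ha1 had -0.07 ± 0.24. Fibril-associated proteoglycans and glycoproteins, Dcn and Bgn among them, were higher for 6 of 6. Of 6 collagen receptors, Ddr1, Ddr2 and Mrc2 were higher and Mrc1 and Lair1, which are receptors of macrophages, lower. Among 7 genes of transforming growth factor signalling, which induces collagen, Tgfb2, Tgfb3 and Smad3 were higher and Tgfb1, Tgfbr1 and Tgfbr2 lower. Marker genes of bone, marrow stroma and cartilage were mixed in the libraries numbered 3. Ibsp and Acan were at 0 and Bglap at most 0.0681, while Sox9 was 6.01 to 9.02 and Cxcl12 33.7 to 66.4. The other markers of these lists are not given, so no cell type is read from them.

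For DMXAA in BMDCs, where 32.2% and 25.4% of all genes were called in the WT and CRE labels, hydroxylation and glycosylation genes had 2 higher and 2 lower of 10 in the WT label and 2 higher and 1 lower in the CRE label. P4ha1, the catalytic subunit of prolyl hydroxylase, was higher in both labels (1.47 ± 0.19, adjusted p = 0.000211, and 1.66 ± 0.20, adjusted p = 0.00012, both in edgeR), as was Plod3 (0.99 ± 0.18 and 1.11 ± 0.18). Adamts14, a propeptidase, was higher as well (4.08 ± 0.76, adjusted p = 0.00179, and 2.0 ± 0.67, adjusted p = 0.0492, both in edgeR). Colgalt1, Sec24d, Mia3, Lair1, Itga1 and Tgfbr1 were lower in both labels. Cross-linking genes and proteoglycans had 0 of 2 and 0 of 4 called in each label.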

How the data were processed

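PolyA RNA from 24 libraries was sequenced after preparation with the NEBNext Ultra RNA kit. The authors deposited raw counts per gene, and the submitters' processing notes name fastp, HISAT2 2.0.5, featureCounts 1.5.0-p3 and GRCm38. FPKM values, also deposited by the authors, divide counts by gene length and by a library size estimate 0.687 to 1.33 times the total count. Outside the BMDM libraries numbered 3, this factor was 1.03 to 1.16 in controls and 0.687 to 0.893 under DMXAA. Directions read in FPKM can therefore differ from those in counts. The deposited fold changes and p-values of the authors' comparisons were not used. All 48 columns of per-library values were matched to a library by its title, and 0 were left unmatched.

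Members, gene lists and the alternatives were chosen with earlier results of these data known. Levels are deposited FPKM. Counts were tested with the quasi-likelihood F test of edgeR 4.0.16 (R 4.3.3), scaled by TMM, two-sided, with Benjamini-Hochberg adjustment over all genes tested and a threshold of 0.05. A gene was tested when 3 or more libraries of its cell type had an FPKM of 1 or higher (of all 24 for the cell type comparison), and fits without number 3 kept this filter. Each cell type was fitted as a whole. Log2 fold changes carry a standard error derived from the F statistic. Members whose mean FPKM reached 5 in a group or over the BMDM libraries numbered 3 were given by library. Per comparison, all called members were named, or the 8 with the largest fold change, and other members were named for a pattern after their values were seen. DESeq2 1.42.0, limma 3.58.1, median of ratios scaling, other filters, replicate blocks and leaving out libraries served as alternatives. The fits were tested on simulated data. Depth of 15657347 to 18912887 counts per library limits the precision of low genes.

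Pairing of libraries that share a number was tested by correlating how they deviate from group means. In BMDMs the lowest correlation between groups was 0.735. In BMDCs it was 0.417 to 0.692 within a label and -0.514 to 0.0325 across labels. The BMDM correlations include the libraries numbered 3, which stand apart in each group, so they do not show whether numbers 1 and 2 pair. BMDC numbers were read as pairing only control with DMXAA of a label, from these correlations alone. The main fits of BMDCs did not model this pairing. The replicate block gave WT-labelled and CRE-labelled libraries of a number a shared term, so it did not model pairing within a label either. Gene positions are those of the table, and all 44 matched GENCODE M21 (GRCm38). Figures were drawn with matplotlib 3.10.9.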

Additional observations from a re-analysis of the deposited data

How the results depend on the processing

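Counts of collagen genes called moved as follows. For DMXAA in WT-labelled BMDMs with numbers 1 and 2, the main count of 0 became 1 (Col9a3) with a filter of 10 counts in 3 libraries, 2 without a filter and 6 without both WT-labelled libraries numbered 2, and 0 to 1 on leaving out 1 library. In the CRE label it became 5 without both WT-labelled libraries numbered 2. Between labels it became 14 without a filter in control (0 to 1 on leaving out 1 library) and 14 under DMXAA, where DESeq2 gave 7 and leaving out both WT-labelled libraries numbered 2 gave 3. The interaction then gave 1. In BMDCs, no filter gave 6 in the WT label and 4 in the CRE label, against 2 each (DESeq2 gave 3 and 2, a filter of 10 counts 3 and 3), and leaving out 1 library gave 1 to 3 in the CRE label and 2 in the WT label. For BMDCs against BMDMs in WT control, the main count of 1 became 2 with a filter of 10 counts, no filter or a replicate block, 12 with DESeq2 and 1 to 2 on leaving out 1 library. With BMDM numbers 1 and 2 the main count of 16 became 7 with limma on log2(FPKM + 1), 1 with a replicate block, 2 without both WT-labelled libraries numbered 2 and 2 to 15 on leaving out 1 library. Those were 2 without BMDM WT control number 2, 5 without BMDC WT control number 2 and 8 without BMDC WT control number 1. For DMXAA within the libraries numbered 3, the count of 2 became 4 with a filter of 10 counts, 9 without a filter and 0 with DESeq2 or limma at either pseudocount. The cause of these moves was not tested, other than that no filter and the filter of 10 counts admitted more genes. The replicate block changed no other count of collagen genes, and 0 results reversed. Because it joined both labels of a number, it is no check of pairing within a label. Collagen genes below an FPKM of 1 rest on few counts, so that differences between them were often not detectable at this depth.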
